A study of Mus musculus with 4 samples.

Results

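Accessible chromatin was examined around 10 genes that make, break down or sense retinoic acid: Rdh10, Aldh1a1, Aldh1a2, Aldh1a3, Cyp26a1, Cyp26b1, Cyp26c1, Rara, Rarb and Rarg. A region was assigned to a gene when the nearest transcription start of any protein-coding gene was one of its own, or when the centre of the region lay within 2.5 kb of one of its starts. This gave 62 of 42613 regions at E9.5 and 62 of 46765 regions at E10.5. The distance of 2.5 kb alone added 0 regions. Chromatin was probed by ATAC-seq, in which a transposase inserts sequencing adapters into open DNA. All embryos were wild type and of the NMRI strain, with 2 biological replicates per stage, each made from the forelimb buds of 1 embryo. The samples titled E9.5 were staged at E9.75 in the protocol and kept adjoining trunk, whereas the E10.5 samples are described without trunk. Their tissue label also mentions hindlimb buds, which neither the source label nor the protocol does.

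Each stage is represented by 1 list in which the authors had combined both replicates. No value per embryo entered, so no difference between the stages carries a replicate error and none was tested. The score of a region is 10 times the negative log10 of its best peak-calling p-value and grows with sequencing depth, which is unknown here. Scores were therefore compared between the stages only as percentiles within each list. Regions overlapping the other stage's list by 1 bp or more are termed shared, and the remaining ones stage-specific. A score of 60 is the weak p-value that a region needed in a replicate to be considered, and regions above it could still fail the combination of replicates. Absence from a list means that a region did not pass these steps, and not that the chromatin was closed. Ranges in brackets after a percentage are 95% Wilson intervals, and they account for counting error alone.

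Retinoic acid is made from retinol in a pair of oxidation steps, the first by retinol dehydrogenases such as RDH10 and the second by the retinaldehyde dehydrogenases of the ALDH1A family. CYP26 enzymes oxidise it to inactive products. Together they shape where the signal is present: in the early mouse embryo ALDH1A2 is the main source in trunk mesoderm, next to the forelimb field, and CYP26B1 clears retinoic acid from the distal limb bud. Receptors RARA, RARB and RARG pair with RXR proteins and bind DNA at direct repeats of a short half-site, most typically with 5 bases between the copies. Rarb and Cyp26a1 are themselves classical target genes.

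The labelled tissue was checked through the promoters of marker genes, of which 28 of 29 were matched by name. All 5 limb mesenchyme markers (Prrx1, Msx1, Hand2, Fgf10 and Tbx5) had a region within 2.5 kb of a start at both stages, although the best one of the forelimb gene Tbx5 stood only at percentile 4.11 of the E9.5 list and 1.36 of the E10.5 list. All 4 somite markers and the 3 matched neural tube markers also had one at both stages. Of the hindlimb markers, Tbx4 and Isl1 had one at both stages and Pitx1 at E9.5 only. Of the intermediate mesoderm markers, Osr1 and Wt1 had one at both stages and Pax2 at E9.5 only. Of the limb ectoderm markers, Wnt7a and Sp8 had one at both stages, Fgf8 at E9.5 only and Trp63 in neither list. Of the blood and endothelial markers, Tal1 and Kdr had one at both stages, and Gata1 and Cdh5 in neither list. The heart gene Myl7 had one at E9.5 only, and Nkx2-5 had none. In all, 20 of the 28 matched markers had one at both stages, against 61.3% of all protein-coding genes. Presence of such a region alone therefore says little about tissue. Stage-specific regions made up 7 of 26 in the E9.5 list and 11 of 30 in the E10.5 list for somite markers, 14 of 23 and 10 of 19 for intermediate mesoderm, and 6 of 34 and 33 of 62 for limb mesenchyme. They made up 2 of 18 and 1 of 18 for neural tube and 11 of 26 and 7 of 23 for limb ectoderm. For hindlimb they were 10 of 26 and 9 of 25, for blood and endothelium 5 of 22 and 9 of 26, and for heart 3 of 3 and 1 of 1. Over all marker genes they made up 58 of 178 (32.6%) and 81 of 204 (39.7%), against 29.9% and 35.0% of all regions. The part that tissue composition plays in the results for the retinoic acid genes was not tested, and stage and trunk tissue cannot be told apart.

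Direct repeats with 5 bases between the half-sites are shown first, because they are the sequences that retinoic acid receptors are known to bind. The half-site AGGTCA and its variants with letters AGTTCA in one case, GGGTCA in another and GGTTCA in the last were searched for in pairs of the same orientation, on both strands of every region. A repeat with this spacing was present in 4 of the 62 E9.5 regions (6.45%, 2.54 to 15.4%), against 0.878% of all E9.5 regions. At E10.5 it was present in 3 of 62 (4.84%, 1.66 to 13.3%), against 0.607% of all. Among all regions of like width the shares were 0.926% and 0.645%. The genes include classical targets of these receptors, so their shares are no independent evidence about such repeats. Repeats found at both stages count in both lists. The 6 repeats lay near Cyp26a1, Rara and Rarb, and are printed 5′ to 3′ on the strand that carries the half-sites, which are in capitals (coordinates in mm9, negative distances are upstream of the nearest start of the gene).
Cyp26a1, at -1.89 kb, chr19:37770387-37770427, plus strand, open at E9.5: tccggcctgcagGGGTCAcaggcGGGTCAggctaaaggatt
Cyp26a1, at -24 bp, chr19:37772254-37772294, minus strand, open at E9.5: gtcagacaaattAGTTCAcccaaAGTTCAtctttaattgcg
Rara, at -396 bp from the start of transcript Rara-004, chr11:98821310-98821350, plus strand, open at both stages: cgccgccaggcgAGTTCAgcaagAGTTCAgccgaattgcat
Rarb, at -49 bp from the start of transcript Rarb-202, chr14:17408015-17408055, minus strand, open at both stages: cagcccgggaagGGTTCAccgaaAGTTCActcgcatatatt
Rarb, at -181 kb from the start of transcript Rarb-201, chr14:17832429-17832469, minus strand, open at E10.5: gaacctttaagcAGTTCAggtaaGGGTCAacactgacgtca
Rarb, at -181 kb from the start of transcript Rarb-201, chr14:17832453-17832493, plus strand, open at E10.5: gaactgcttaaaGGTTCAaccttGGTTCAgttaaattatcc

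The repeat of Rarb next to its start is the classical response element of the gene. The last 2 of these repeats lie on opposite strands of a single region and point away from each other, and their printed flanks overlap. All 4 repeats of the E9.5 list were in promoter-proximal regions, that is, in regions centred within 2.5 kb of a start. With 2 bases between the half-sites, repeats occurred in 1 E9.5 region and 2 E10.5 regions, near Cyp26b1 (162 kb downstream of its 5′ start, in both lists) and Rarb (at -125 kb from its 5′ start, E10.5 only). These were 1.61% and 3.23% of the regions, against 1.02% and 0.714% of all. With 1 base between them, 0 of 62 regions held one in either list, against 1.54% and 0.943% of all regions. A count of 0 in 62 regions allows a share of up to 4.84% (3 counts of 62, counting error only). These matches describe letters in the window and were not tested for binding.

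Of the 62 E9.5 regions, 26 were stage-specific (41.9%, 30.5 to 54.3%), against 29.9% of all E9.5 regions. At E10.5, 24 were (38.7%, 27.6 to 51.2%), against 35.0% of all. The background lies below the interval at E9.5 and inside it at E10.5. Among promoter-proximal E9.5 regions, 8 of 21 were stage-specific (38.1%, 20.8 to 59.1%), against 13.1% of all such regions. Those 8 belonged to Rara (3), Cyp26a1 (3) and Aldh1a2 (2), and most had low scores. With the higher-scoring 50% of E9.5 regions set against the whole E10.5 list, 1 of 13 was stage-specific (7.69%). With the higher-scoring 50% of both lists, 7 of 13 were (53.8%), but this cut also calls a region stage-specific when its counterpart is in the lower-scoring 50%. The same shares over all regions were not computed for these cuts. Among promoter-proximal E10.5 regions of any score, 1 of 16 was stage-specific (6.25%, 1.11 to 28.3%), against 5.31% of all. Distal regions were stage-specific about as often as in the whole lists, in 18 of 41 at E9.5 (43.9%, 29.9 to 59.0%, against 40.3% of all) and 23 of 46 at E10.5 (50%, 36.1 to 63.9%, against 49.6% of all). All regions of the same score decile, promoter class and GC quintile as the members had no counterpart in 34.9% of cases (E9.5 list) and 36.3% (E10.5 list). Both values lie inside the intervals of the 10 genes. In bulk tissue, fewer cells with an open region and less opening per cell cannot be told apart.

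**Figure D1:**
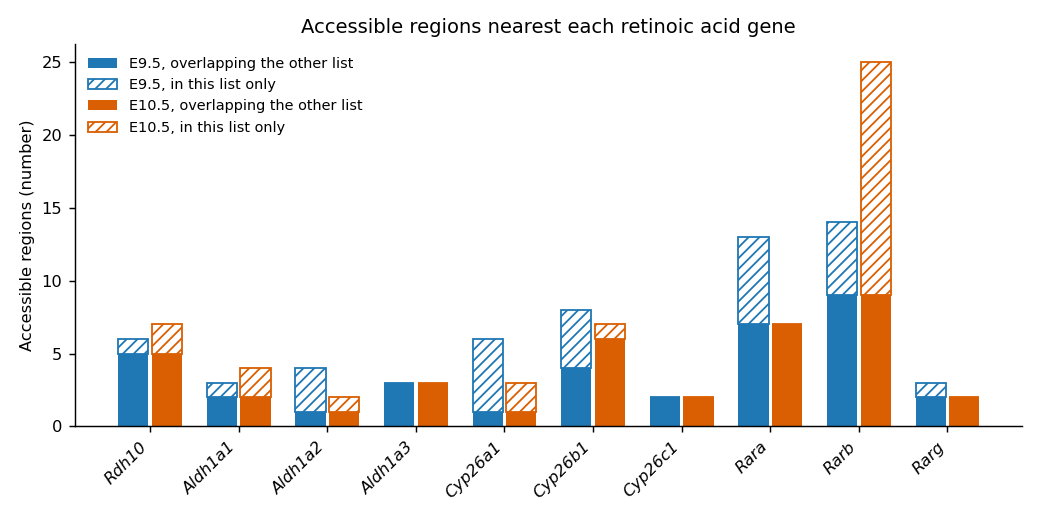
Number of accessible regions (vertical axis) nearest each of the 10 genes at E9.5 (blue) and E10.5 (orange); filled parts overlap a region of the other list and hatched parts do not. Rarb has the most regions, 14 and 25, and Rara has 13 and 7.

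A promoter-proximal region was present at both stages for 7 genes, against 61.3% of all protein-coding genes. It was present at E9.5 only for Aldh1a2 and Cyp26a1, against 3.75% of all genes, and at E10.5 only for Aldh1a1, against 1.12% of all. The promoter-proximal regions of the family were modest by score at the median, which stood at percentile 26.7 (E9.5) and 18.9 (E10.5) of all promoter-proximal regions. This median counts regions and not genes, and Rara gave 9 of the 21 at E9.5 and 6 of the 16 at E10.5. The median distal region stood at percentile 60.4 and 61.8 of all distal regions. Rdh10, Rarb and Rarg had promoter-proximal regions well above these medians in both lists.

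**Figure D2:**
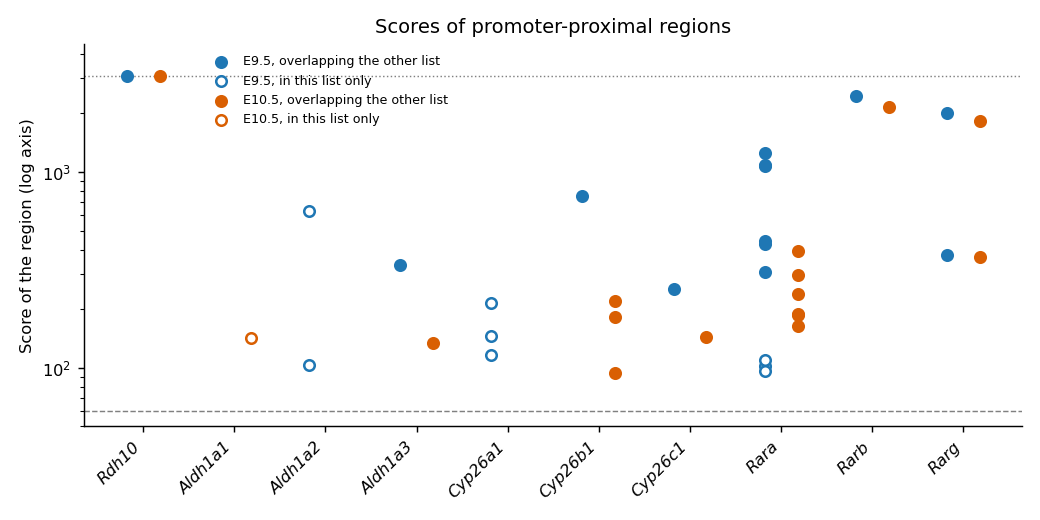
Score (log axis) of each promoter-proximal region of the 10 genes at E9.5 (blue) and E10.5 (orange); filled points overlap the other list, open points do not, the dashed line is the weak p-value of the authors as a score, 60, and the dotted line is 3100, a score shared by many regions. Rdh10 is at 3100 in both lists, Aldh1a2 and Cyp26a1 have points at E9.5 only, and Aldh1a1 at E10.5 only; scores depend on depth and are not comparable between the lists.

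Rdh10, the enzyme of the first oxidation step (chromosome 1, 16095855 to 16123815), had the highest-scoring promoter of the family. Its promoter region, 16093673 to 16096935 at E9.5 and 16093822 to 16096934 at E10.5, scored 3100 in both lists. This value was shared by 682 E9.5 and 355 E10.5 regions, with 161 and 95 regions above it, so no order between the stages was read from it. At E9.5 the region was centred 0.551 kb from the start of Rdh10 and 0.561 kb from that of the gene Rpl7. At E10.5 these distances were 0.477 and 0.635 kb. The score therefore cannot be given to Rdh10 alone. Rdh10 had 6 regions at E9.5 and 7 at E10.5, of which 5 were shared from either side. When starts of all gene types were used for the assignment, 2 regions in each list and 0 stage-specific ones were left to Rdh10, so most of its distal regions lay nearer to the start of a gene that codes for no protein. A cluster 97.7 to 119 kb downstream of the start of transcript Rdh10-002 held 3 shared regions, in part inside the neighbouring gene Stau2, which encodes an RNA-binding protein. The region at 16238522 to 16240567 moved from percentile 77.8 (score 896) to 95.7 (score 1954), and those at 97.7 and 99.3 kb from 43.7 to 69.6 and from 46.0 to 65.8. All 3 ranked higher at E10.5, whereas the intronic region 2.63 kb before the start of Rdh10-002 went from 72.0 to 67.9. The region at 16238522 to 16240567, inside Stau2, lay 126 kb from the start of Stau2 and 119 kb from that of Rdh10-002. It lay 144 kb from the 5′ start of Rdh10, so its assignment to Rdh10 rested on the start of Rdh10-002. The stage-specific regions were weak: 1 at E9.5 with a score of 137 and 2 at E10.5 with 153 and 171.

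Aldh1a2, the main retinaldehyde dehydrogenase of trunk mesoderm (chromosome 9, 71063596 to 71144050), had 4 regions at E9.5 and 2 at E10.5. Its start was covered at E9.5 by a region at 71062712 to 71064858 with a score of 632, percentile 70.9 of the list. A weaker region followed 6 bp further on (71064865 to 71065629, score 104). Neither had a counterpart at E10.5, where the nearest region was 24.5 and 23.7 kb away. An intronic region 14.4 kb inside the gene (score 125) was also specific to E9.5. The only shared region, in an intron 26.1 kb downstream of the start, stood near percentile 29.0 at E9.5 and 30.6 at E10.5, with almost the same score (152 and 153). The other E10.5 region lay 122 kb downstream of the start and was specific to that stage, with a score of 237 at percentile 49.3. Of the E9.5 regions in the same strata of score, promoter class and GC content as the 4 of Aldh1a2, 35.7% were stage-specific, against 3 of 4 here. The trunk tissue in which this gene is known to be active was kept in the E9.5 samples only, and its part in the result cannot be told apart from stage.

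Aldh1a1 (chromosome 19, 20676451 to 20717952), a dehydrogenase best known from the eye and adult tissues, went the other way. At E9.5 it had 3 regions and none at its start. At E10.5 it had 4, including a weak one over the start (20675948 to 20676788, score 141, percentile 26.6). The strongest region of the gene lay 58.0 kb upstream at E10.5 (20617818 to 20619148), with a score of 950. It stood at percentile 95.3 of all distal E10.5 regions, and the nearest E9.5 region was 34.1 kb away. Its GC content was 38.2%, below the median of 44.2% of all distal E10.5-specific regions. The start of Anxa1, the next protein-coding gene, was 153 kb away. With starts of every gene type, Aldh1a1 kept only 2 of its 4 E10.5 regions, 1 of them stage-specific. All 16 promoter-proximal E10.5 regions of the 10 genes stayed, so the stage-specific one lost was that 58.0 kb upstream. Its assignment to Aldh1a1 therefore rested on leaving out genes that code for no protein. A region in a coding exon 32.5 kb into the gene was shared with little change in rank (percentile 48.3 and 50.1).

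Aldh1a3 (chromosome 7, 73535778 to 73572403), which supplies retinoic acid in the developing eye and nose, had the same 3 regions in both lists and 0 stage-specific ones. Its promoter region (73571721 to 73573146 at E9.5) ranked lower at E10.5, at percentile 23.6 (score 133) against 57.1 (score 334). A pair of regions 22.9 and 24.5 kb upstream did not share that change. The nearer one stayed at percentile 55.2 and 56.3, and the farther one stood at 14.8 and 34.3.

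The starts of the 3 synthesis and breakdown genes with a promoter region in 1 list only differed in base composition. The 150 bases before each start are shown with CpG dinucleotides in capitals (mm9, plus strand).
Aldh1a2, chr9:71063446-71063595, open at E9.5: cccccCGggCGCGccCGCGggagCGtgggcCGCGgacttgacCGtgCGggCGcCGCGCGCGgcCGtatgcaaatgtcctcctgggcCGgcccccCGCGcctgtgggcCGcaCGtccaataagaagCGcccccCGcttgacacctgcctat
Cyp26a1, chr19:37772148-37772297, open at E9.5: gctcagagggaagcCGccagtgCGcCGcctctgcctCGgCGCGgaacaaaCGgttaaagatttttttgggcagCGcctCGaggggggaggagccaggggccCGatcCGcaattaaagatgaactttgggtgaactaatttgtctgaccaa
Aldh1a1, chr19:20676301-20676450, open at E10.5: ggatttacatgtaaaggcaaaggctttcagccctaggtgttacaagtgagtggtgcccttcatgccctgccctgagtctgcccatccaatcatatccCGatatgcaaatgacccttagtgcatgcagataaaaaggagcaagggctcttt

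Aldh1a2 had 23 CpG dinucleotides in this stretch at a GC content of 76.0%, Cyp26a1 had 11 at 57.3% and Aldh1a1 had 1 at 48.0%. Among starts covered by a region at both stages, the first start of Rdh10 had 22 at 72.7% and that of Rarb-202 had 5 at 48.7%. The start of Cyp26c1 had 2 at 47.3%, but its promoter-proximal regions began downstream of it in both lists. Base composition thus also varied among starts with a promoter-proximal region at both stages. The direct repeat beside the start of Cyp26a1 is near the end of its stretch, where it reads on the opposite strand.

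Cyp26a1 and Cyp26c1, which encode retinoic acid hydroxylases, are neighbours on chromosome 19 (37772298 to 37776018 and 37760071 to 37767888). Cyp26a1 had 6 regions at E9.5, of which 5 were stage-specific, and 3 at E10.5, of which 2 were. At E9.5 a row of 3 regions spanned its promoter and coding part. They lay at 37769937 to 37770918 (score 213), 37771942 to 37772937 (score 145) and 37773160 to 37773865 (score 116). The first held the farther direct repeat of the gene and the second the one beside the start. None of the 3 had a counterpart at E10.5, where the nearest region was 1.92 to 5.14 kb away. They were weak at E9.5 as well, at percentiles 43.4, 26.8 and 15.0 of the list. Regions in the same strata of score, promoter class and GC content were stage-specific in 56.9% of cases, against 5 of 6 here.

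Farther downstream of Cyp26a1 the stages had different regions. At E9.5 they lay 93.0 kb (37864585 to 37866087, score 534, percentile 67.6) and 117 kb (score 127) from the start. At E10.5 they lay 70.5 kb (score 85.1) and 103 kb (score 278) from it. Only the region 4.69 kb upstream, inside Cyp26c1, was shared, at percentile 18.9 at E9.5 and 28.0 at E10.5. Cyp26c1 itself had 2 shared regions, over coding exons 1.56 and 5.34 kb from its start at E9.5. Both ranked lower at E10.5, at percentile 27.6 against 48.8 and 24.8 against 46.4.

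Cyp26b1 (chromosome 6, 84521938 to 84543740), the hydroxylase of the distal limb bud, kept an accessible promoter but in a different shape. At E9.5 a single region of 3757 bp (84537143 to 84540899, score 751, percentile 74.3) covered the start of transcript Cyp26b1-202. At E10.5 the same stretch held 3 separate regions of 906, 911 and 1072 bp, with scores of 94.3, 180 and 219. The best of them stood at percentile 46.4. In contrast, a pair of intronic regions 8.53 and 9.94 kb into the gene at E9.5 had the same or a higher rank at E10.5 (percentiles 25.5 and 40.5, and 63.2 and 64.7). The same held for a region 162 kb downstream of the 5′ start (84380728 to 84381978, 64.5 and 66.0), which carries the direct repeat with 2 bases between the half-sites. Upstream, 3 regions inside the neighbouring gene Exoc6b were specific to E9.5, the strongest of them 47.1 kb from the start (score 421, percentile 62.6). The nearest E10.5 region was 39.1 to 106 kb away from these 3. In all, stage-specific regions were 4 of 8 in the E9.5 list and 1 of 7 in the later one, against 37.9% and 10.9% of regions in the same strata of score, promoter class and GC content. With a reciprocal overlap of 50% the E10.5 number was 4.

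Rara (chromosome 11, 98789132 to 98836256), the most broadly expressed of the receptors, had 13 regions covering 21.1 kb at E9.5 and 7 covering 9.10 kb at E10.5. All 7 E10.5 regions were shared, and 6 of the E9.5 regions were stage-specific (46.2%), against 31.8% of regions in the same strata of score, promoter class and GC content. Of 541 genes with at least 10 E9.5 regions, 188 had as high a stage-specific share. Among 16493 genes with a region at either stage, 105 (0.637%) had a difference as large in this direction. The 6 stage-specific regions were mostly weak, with scores of 95.8 to 169 and one of 297. The nearest E10.5 region was 0.661 to 3.91 kb away from them, so they lay among regions that were found at both stages.

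The shared Rara regions ranked lower at E10.5 in 7 of 7 cases, with changes between -50.3 and -5.46 percentile points for the 6 promoter-proximal ones. Among all shared promoter-proximal regions 58.4% ranked lower, with a median change of -1.47 points. The largest change was at 98820469 to 98822770, which covers the start of transcript Rara-004 and holds the direct repeat printed above. It stood at percentile 84.2 (score 1243) at E9.5 and 33.9 (score 164) at E10.5, a change at percentile 1.28 of all shared regions. The intronic region at 98829128 to 98832190, the highest-scoring one of the gene at E9.5, stood at percentile 88.8 (score 1568) and then 64.7 (score 386). The region over the start of Rara-001 had 81.1 and 65.3, and the one at the far upstream side had 54.9 and 49.5. Rara has 8 annotated starts within one gene, so that 9 of its 13 E9.5 regions counted as promoter-proximal. The change ran in the same direction along the whole gene and its E9.5 regions had a median GC content of 58.8%.

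**Figure D3:**
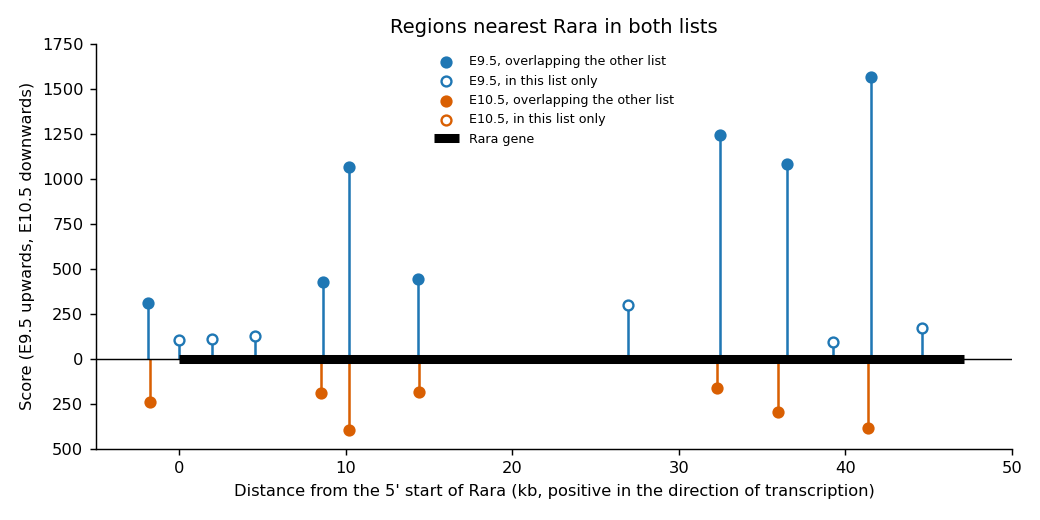
Score of each Rara region (vertical axis, E9.5 upwards in blue, E10.5 downwards in orange) against the distance of its centre from the 5′ start of the gene in kb; filled points overlap the other list, open points do not, and the black bar is the gene. The 13 E9.5 regions include 6 open points, while the 7 E10.5 regions are all filled.

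Rarb (chromosome 14, 17263356 to 17651381), a receptor gene that is itself induced by retinoic acid, showed the opposite balance. It had 14 regions covering 20.2 kb at E9.5 and 25 covering 28.3 kb at E10.5. Of these, 9 were shared from either side, 5 were specific to E9.5 and 16 to E10.5. Among the 16493 genes, 92 (0.558%) had a difference as large in that direction, and 50 (0.303%) had as many at E10.5. The gene lies in a sparse neighbourhood and its starts are the nearest ones over 741 kb, the widest interval in the family, against 49.8 kb for Rara. Per 100 kb of that interval Rarb had 1.89 regions at E9.5 and 3.38 at E10.5, and Rara had 26.1 and 14.1. Within 100 kb of a start, Rarb had 9 regions at E9.5, of which 2 were stage-specific, and 11 at E10.5, of which 4 were, so most of the difference lay farther out. With the higher-scoring 50% of both lists it was also smaller. Rarb then had 8 regions at E9.5, of which 2 were stage-specific, and 11 at E10.5, of which 5 were.

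The E10.5-specific Rarb regions were all distal, 5 of them inside introns and 11 upstream, up to 385 kb from the start. Their scores ran from 81.0 to 539. The highest-scoring one lay 178 kb upstream (17828984 to 17830027, score 539, percentile 73.3), and the next, with a score of 493, was an intronic region 52.7 kb downstream of the start of Rarb-202. The region with the 2 direct repeats on opposite strands, 17832072 to 17832993, had a score of 165, percentile 34.3. The nearest E9.5 region was 33.8 kb away. The E9.5-specific regions of the gene scored from 107 to 863. The highest was 83.0 kb upstream (17733719 to 17735075, percentile 77.01), and its nearest E10.5 region was 31.9 kb away.

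Base composition moved with these counts. Median GC content was 42.9% in the E10.5-specific Rarb regions, against 46.8% in its shared E10.5 regions. In the whole E10.5 list distal stage-specific regions had 44.2% and distal shared regions 50.5%, whereas at E9.5 both had 50.8%. In regions of the same score decile and promoter class as the 25 of Rarb, 11.1 stage-specific ones correspond to the rate of the list, and 13.3 when GC quintile is added, against 16 counted. The part of GC content in the result was not tested. Of 860 genes with at least 10 E10.5 regions, 258 had as high a stage-specific share as Rarb.

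**Figure D4:**
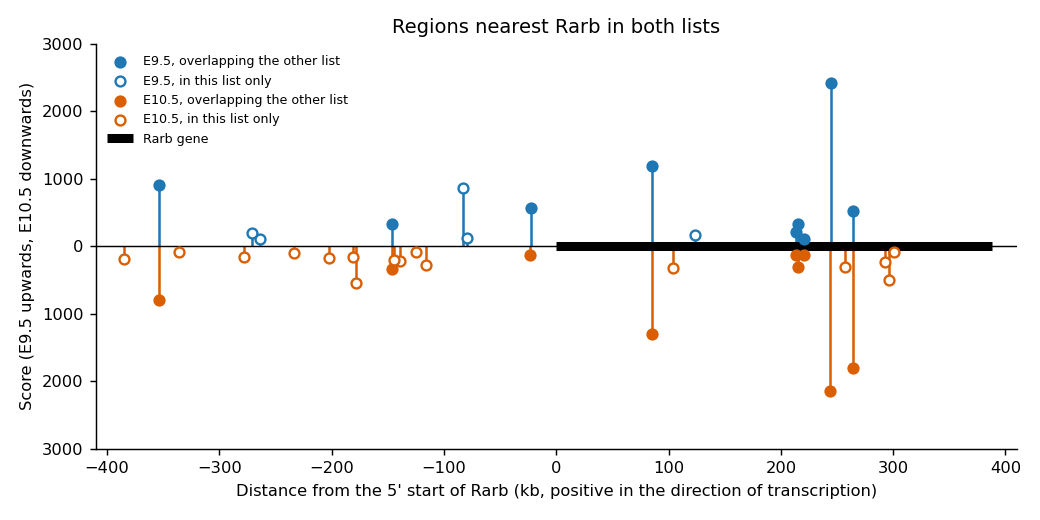
Score of each Rarb region (vertical axis, E9.5 upwards in blue, E10.5 downwards in orange) against the distance of its centre from the 5′ start of the gene in kb; filled points overlap the other list, open points do not, and the black bar is the gene. The open orange points, 16 in number, lie on both sides of the start and stay below the strongest shared regions.

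The promoter of Rarb that carries the classical repeat was strong at both stages. The region at 17405003 to 17408758 scored 2428 at E9.5 (percentile 95.6), and its E10.5 counterpart 2146 (percentile 96.7). In addition, an intronic region 20.6 kb downstream of this start (17386620 to 17388148) had percentile 67.4 (score 528) at E9.5 and 95.02 (score 1809) at E10.5. The intronic region at 17565413 to 17567083 had 83.3 and 90.6. Ranks were lower at E10.5 at 2 places, 22.9 kb upstream of Rarb-201 (69.0 and 23.3) and 29.7 kb upstream of Rarb-202 (43.4 and 22.9). The upstream start, that of Rarb-201, had no region within 2.5 kb in either list.

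Rarg (chromosome 15, 102065369 to 102087948), the receptor of mesenchyme and cartilage precursors, had nearly the same regions in both lists. It had 3 regions at E9.5 and 2 at E10.5, and both E10.5 regions were shared. The wide region at 102075904 to 102080550, next to the start of Rarg-002, was 4647 bp long and stood at percentile 92.9 (score 1987) at E9.5 and 95.1 (score 1811) at E10.5. The region at the 5′ start stood at 60.02 and 63.2. The single stage-specific region lay in a coding exon at E9.5, with a score of 197.

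**Figure D5:**
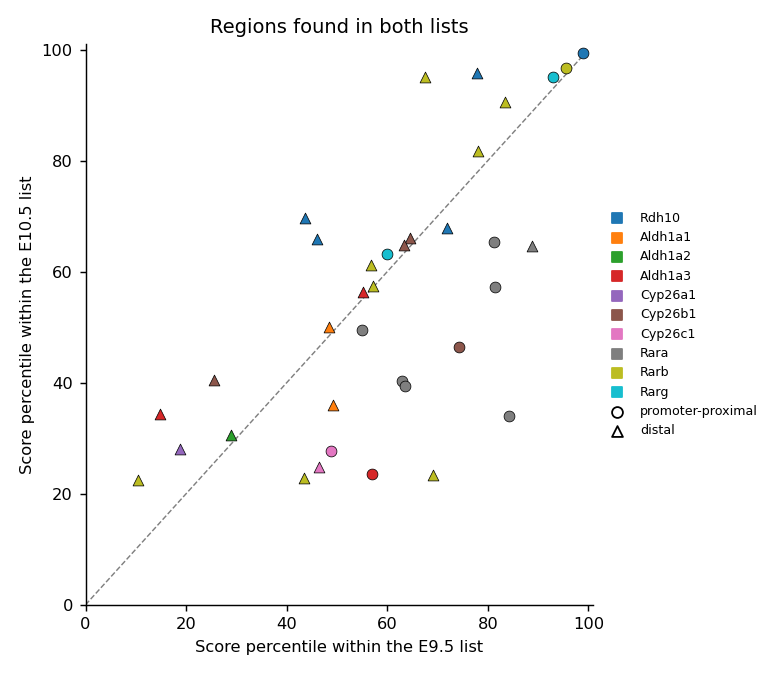
Percentile of the score within the E9.5 list (horizontal) and the E10.5 list (vertical) for each shared region of the 10 genes, coloured by gene, with circles for promoter-proximal and triangles for distal regions; the dashed line marks equal percentiles. The 7 Rara points lie below the line, and most distal points lie on or above it.

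Across the 10 genes, 9 of 13 shared promoter-proximal regions ranked lower at E10.5, against 58.4% of all such regions. Of these 9, 6 were regions of Rara, so the count mostly reflects that gene. The 4 that did not were those of Rdh10, Rarb and Rarg. The Rdh10 region had the widely shared score of 3100 in both lists, so its order between the stages is not informative. Of the 23 shared distal regions 6 ranked lower, against 41.8% of all. The receptors therefore differed among themselves in these lists. Rara regions were fewer and lower in rank at E10.5, distal Rarb regions were more numerous, and those of Rarg were alike, with no test of these differences.

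The other genes of the pathway were read from a list of 23, all matched by name. A promoter-proximal region was present at both stages for 18, against 61.3% of all protein-coding genes. It was present at E9.5 only for Hoxb1 and Tgm2, against 3.75% of all, and in neither list for Adh1, Dhrs9 and Stra8. Stage-specific regions of the 23 genes numbered 47 of 118 in the E9.5 list (39.8%, 31.5 to 48.8%) and 22 of 96 in the E10.5 list (22.9%, 15.6 to 32.3%), against 29.9% and 35.0% of all regions. The target genes had 21 of 48 (43.8%) and 6 of 36 (16.7%). Among them Tgm2, a transglutaminase, had 6 of 7 and then 0 of 1, and Meis2, a homeobox gene of the proximal limb, 6 of 21 and 2 of 20. Hoxb1, active in the trunk and hindbrain, had 4 of 5 and 0 of 1.

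Of the heterodimer partners, Rxra had 9 regions in the E9.5 list, 5 of them stage-specific, and 5 in the E10.5 list, with 1 stage-specific. Its best promoter region stood at percentile 82.5 and 52.2, a difference in the direction seen for Rara. Rxrb had 2 regions and then 1, and Rxrg had 2 and then 5. Dhrs3, which reduces retinaldehyde back to retinol, had a strong promoter at both stages (percentile 96.8 and 98.4), as did the corepressor gene Nrip1 (98.8 and 99.4). The 6 transport and storage genes all had a promoter region at both stages, and 3 of the 5 retinol and retinal enzymes did. Crabp2, a carrier of retinoic acid in the cell, stood at percentile 92.0 and 86.3.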

How the data were processed

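ATAC-seq was performed by the authors on 2 biological replicates per stage. Reads were aligned to mm9 with Bowtie 1.1.0 (version per the submitters' processing notes), keeping unique matches with at most 2 mismatches, and accessible regions were called with MACS 1.4 without a control library. For each stage the authors merged evidence from both replicates using MSPC (stringent p-value 1e-10, weak p-value 1e-06). The deposited score of a region, made by the authors, is −log10 of the lowest MACS p-value of the replicate regions behind it, multiplied by 10. Read totals were not used here, so depth is unknown, and only combined regions entered.

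Regions were assigned by their centre to the nearest of 70064 transcription starts of 22380 protein-coding genes (GENCODE vM1, on NCBIM37, the assembly equivalent to mm9); every region fitted within its chromosome. Gene symbols are those of this annotation. Overlaps, assignments and sequence searches were computed with Python 3.11.15 (numpy 2.4.6, pandas 2.3.3, scipy 1.17.1) and were tested on simulated data. GC content was taken from 301 bases around the centre. Every promoter-proximal region, the strongest shared distal and stage-specific regions and those with a repeat of spacing 5 were eligible to be named, and any other region described was chosen after its values were seen. The 10 genes and the gene lists were chosen with earlier results of these data known. Values of 1 gene of the pathway list are not reported here on their own. No test between stages was made. Alternatives for the overlap, score, promoter distance and assignment were tried.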

Additional observations from a re-analysis of the deposited data

How the results depend on the processing

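No paired analysis was possible because both replicates of a stage were merged by the authors into 1 list without values per replicate, and leaving out each replicate in turn could not be run for the same reason. Of 100 alternative values for the 10 genes as a whole, 86 stayed within the interval, or within 1.5 times the count, of the reported value. Keeping the higher-scoring 50% of both lists left, by construction, 29 regions at E9.5 and 28 at E10.5, and 4 genes with a promoter-proximal E10.5 region, of whose regions 0% were stage-specific. Set against the whole other list, the higher-scoring E9.5 regions were stage-specific in 17.2% of cases, the distal ones in 25% and the promoter-proximal ones in 7.69% (E10.5, 0%). These shares were not computed over all regions of the lists. A reciprocal overlap of 50% made 31.2% of the promoter-proximal E10.5 regions stage-specific. A promoter distance of 1 kb gave promoter-proximal shares of 16.1% and 14.5%. With regions within 100 kb of a start, which removes the far Rarb regions, 19.0% of E10.5 regions and 26.9% of the distal ones were stage-specific and 38.1% were promoter-proximal. Shares over all regions were not computed for the reciprocal overlap, the promoter distance or the limit of 100 kb either. For single genes, 61 of 280 counts moved by more than 1.5 times. The difference in number of regions between the stages vanished for Cyp26a1 and Rarg with the higher-scoring 50% of both lists (1 and 1, 2 and 2), for Rdh10 with starts of all gene types (2 and 2) and for Cyp26b1 with merged regions (7 and 7). It kept its direction in the other 36 cases with a difference. Merging regions up to 100 bp apart, and calling regions shared within 1 kb of the other list, were chosen after seeing the data and moved no stage-specific or promoter-proximal share of the 10 genes out of its interval.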
